A study of Mus musculus with 21 samples.

Results

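Fatty acid oxidation and PPARA target genes were followed in mouse liver after microRNA-122 was blocked with SPC3372, a locked nucleic acid (LNA) antimiR that binds the mature microRNA. The set was given as 36 genes chosen by symbol for their place in the pathway, and 35 of them had a value among the 18193 genes measured. Each gene was read from its probe set with the highest mean level over the arrays. Cyp4a10, a fatty acid omega-hydroxylase, was matched only by a probe set that carries a second symbol, Cyp4a31, and was therefore given no value.

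Liver RNA came from 18 female NMRI mice, an outbred stock with no engineered allele named in the labels and no age stated there. On day 2 the mice received either 25 mg per kg of SPC3372 or the saline vehicle. Livers were taken on day 3, 9 or 23, which gave 6 groups of 3 mice, and each mouse is 1 biological replicate. The labels number the saline mice 1, 2 and 3 on both day 3 and day 9, and give number 8 to a treated mouse on both days. Mice of different days were counted as different animals. The labels mark 15 arrays p0617, those of day 3 and day 9 and a second array of each treated day 23 mouse, and 6 arrays p0621, which were used for day 23, so each treated against saline comparison stays within a prefix. Levels are log2 values from Affymetrix mouse arrays, so a difference of 1 is a doubling, and such values do not compare the abundance of one gene with that of another. A gene was called changed where its adjusted p in a limma fit of all genes (Benjamini-Hochberg) was under 0.05.

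PPARA is a nuclear receptor that is activated by fatty acids and binds DNA as a heterodimer with the retinoid X receptor at paired AGGTCA elements spaced by a single base, known as DR1 or PPRE. In liver it is known for the transcription of genes that take fatty acids up, carry them into mitochondria and peroxisomes and oxidise them there, above all in fasting. The mitochondrial route starts with the carnitine shuttle, proceeds through repeated dehydrogenation, hydration, a second dehydrogenation and thiolysis, and passes its electrons to the respiratory chain through the electron transfer flavoprotein. Peroxisomes shorten very long chains, the CYP4A enzymes hydroxylate the omega end, and acyl-CoA thioesterases release free fatty acids from their CoA esters.

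Of 11 known targets of microRNA-122, 6 were called higher in treated mice at day 3, 7 at day 9 and 1 at day 23, and 0 lower. Bckdk, whose product phosphorylates and inactivates an enzyme of branched-chain amino acid breakdown, was higher in treated mice by 1.15 at day 3 (SE 0.12, adjusted p = 2.38e-05) and 1.06 at day 9 on the log2 scale; its difference of 0.54 at day 23 just missed the threshold (adjusted p = 0.0509). Hepatocyte markers did not differ by limma in any comparison (0 of 12, with at most 1 at an unadjusted p under 0.05), and their summed log2 level lay between 17.68 and 17.73 on the 18 arrays. Kupffer cell and macrophage markers were higher in treated mice at day 3 (7 of 15, Marco by 1.98), with a summed log2 level of 13.33 to 13.97 against 12.47 to 13.39; of the list only Itgam lay below the median of all probe sets. Lymphocyte markers were also higher at day 3 (3 of 11 called: Ccl5 by 1.52, Gzma by 1.40 and Gzmb by 1.12), with summed log2 levels of 9.16 to 9.51 against 8.41 to 8.64 and 3 of the 11 below that median. Single markers called higher were Clec4g of sinusoidal endothelium at day 3 (0.60) and day 9 (0.48) and Epcam of bile duct cells at day 3 (0.32), of 13 and 5. Of 6 adipocyte markers 1 was called lower in treated mice at day 9. At day 9, 3 of 12 stellate cell and fibroblast markers were higher in treated mice (Reln, Dcn and Hand2, by 0.53 to 0.63), with summed log2 levels of 12.08 to 12.24 against 11.59 to 11.75. The log2 ratio of the 3' to the 5' beta-actin control, a measure of RNA integrity, was 1.03 ± 0.02 in treated against 0.80 ± 0.05 in saline mice at day 3 (SD, n = 3 each). It was 1.14 ± 0.02 against 0.93 ± 0.06 at day 9 and 1.15 ± 0.16 against 1.16 ± 0.04 at day 23. In whole liver, fewer cells of a type and less RNA per cell cannot be told apart.

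Few of the fatty acid oxidation genes differed between treated and saline mice by the limma test. At day 3, 1 gene rose (Acot4) and 2 fell (Etfa and Acads), where 2.63% of all genes rose and 1.88% fell. The median difference of the 35 genes was -0.02 on the log2 scale, beside 0.01 for all genes. An unadjusted p under 0.05 was found for 8 of the 35, and for 3328 of all 18193 genes. All 3 treated arrays lay above all 3 saline arrays for 8 genes and below them for 5, against 11.1% and 10.4% of all genes.

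At day 9, 3 genes rose (Acot4, Hadhb and Eci1) and 0 fell, where 1.91% of all genes rose and 0.896% fell. The median difference was 0.17, beside -0.02 for all genes. A higher mean in treated mice was found for 29 of the 35 genes and for 8207 of all 18193. An unadjusted p under 0.05 was reached by 12 of the 35 genes, and by 3052 of all 18193. The treated arrays lay wholly above the saline arrays for 13 genes and wholly below for 5, against 10.4% and 11.2% of all genes. At day 23 no gene of the set was called by limma (0 of 35, with 2 at an unadjusted p under 0.05 and 0 to 1 over the other settings), where 0.187% of all genes rose and 0.198% fell. Of all 18193 genes 2522 had an unadjusted p under 0.05 at day 23. The median difference was -0.03, and the arrays separated completely for 1 gene above and 5 below, against 8.12% and 11.1% of all genes. The number of called genes depended on single arrays. It went from 3 to 1 at day 3 without treated replicate 1 or without saline replicate 1, and from 3 to 1 at day 9 without treated replicate 1, treated replicate 3 or saline replicate 3.

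**Figure D1:**
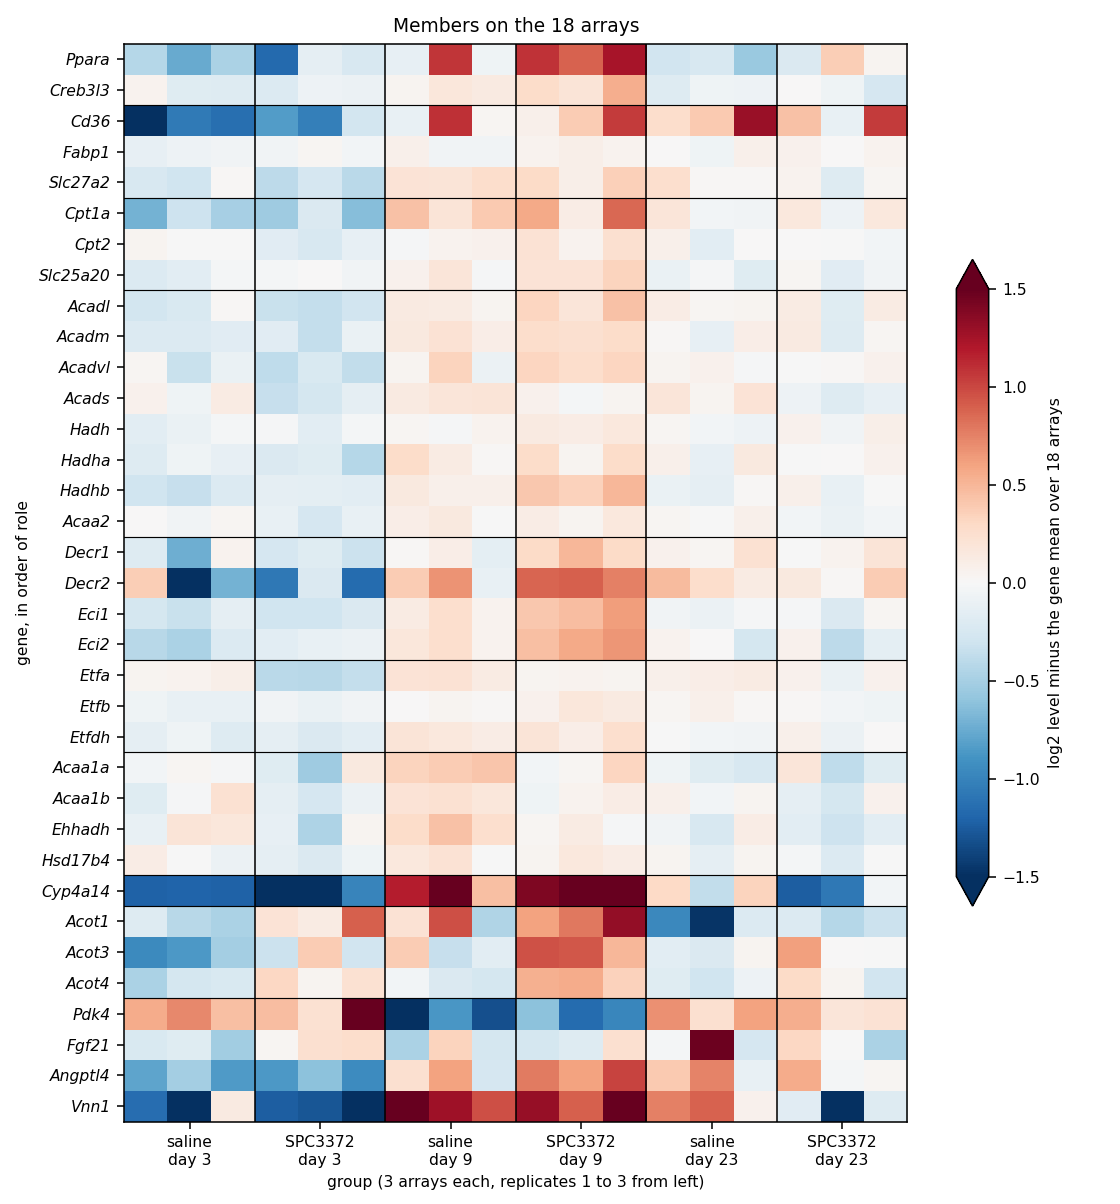
Heat map of 35 genes (vertical, in order of role) on 18 arrays (horizontal, 3 per group), coloured by the log2 level minus the gene mean over the 18 arrays, with colours saturated at the ends of the scale. Most genes are lower on the day 3 arrays and higher on the day 9 arrays in saline and in SPC3372 mice, and Pdk4 shows the opposite.

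The change of the treated minus saline difference from day to day was tested as an interaction. From day 3 to day 9 it was called for 0 of 35 genes, against 0.143% of all genes called in either direction. An unadjusted p under 0.05 was reached by 6 of the 35 and by 2117 of all 18193 genes. From day 9 to day 23 the change was called for 0 of 35 genes, against 0.0055% of all genes. Here 5 of the 35 and 1581 of all genes had an unadjusted p under 0.05. The calls of day 3 and day 9 named above are therefore not shown to differ between days.

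**Figure D2:**
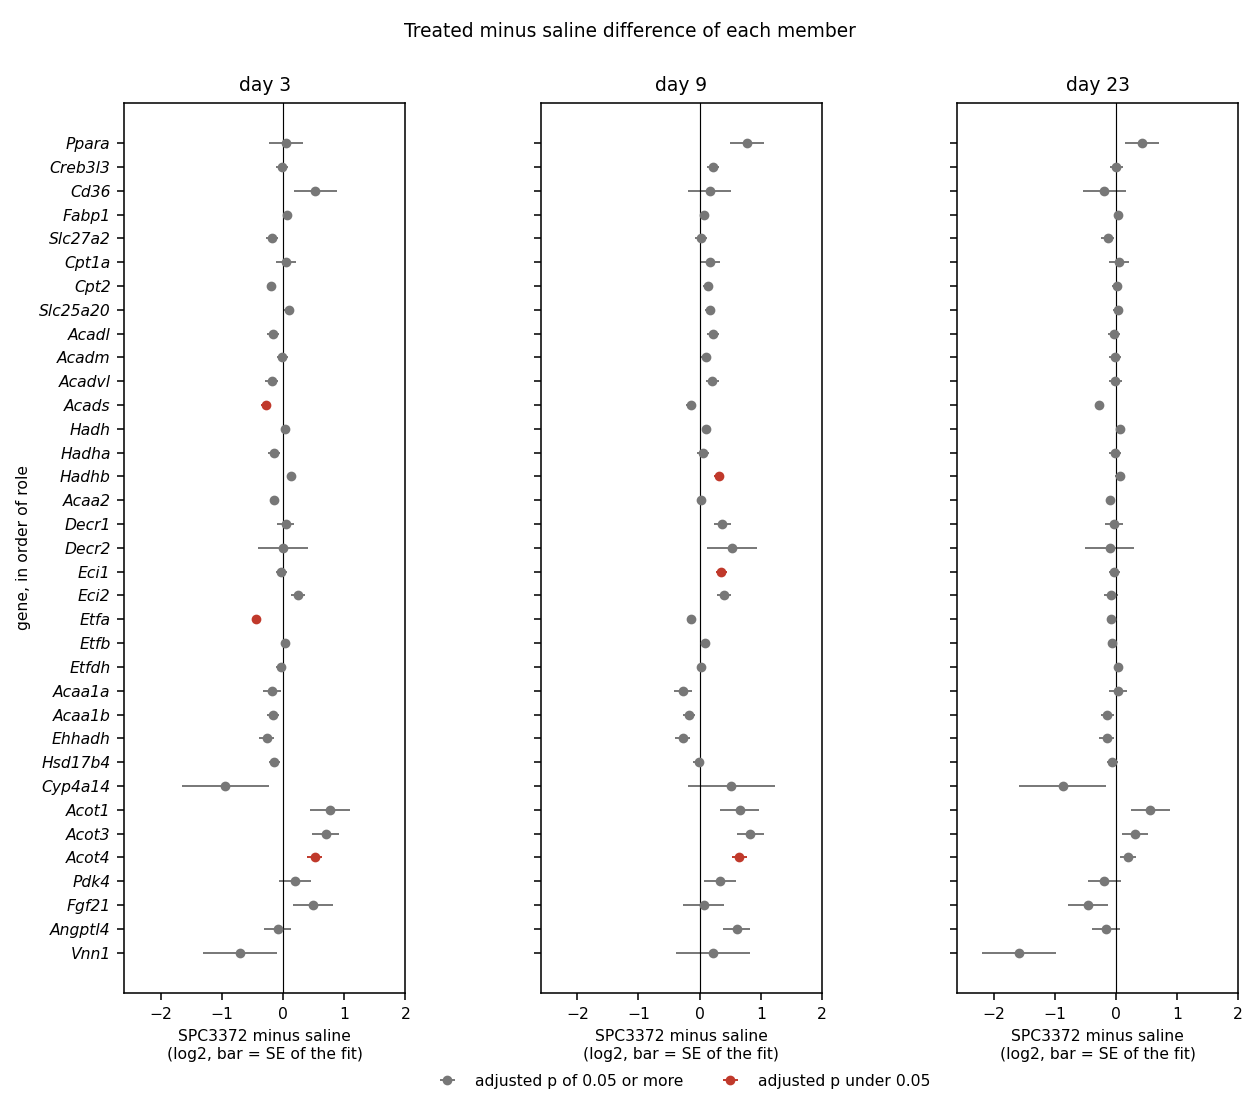
Treated minus saline difference (horizontal, log2) of each gene (vertical) at day 3, 9 and 23; points are fitted differences of 3 against 3 mice, bars are the SE of the limma fit, and red marks an adjusted p under 0.05. Red points are Etfa, Acads and Acot4 at day 3 and Hadhb, Eci1 and Acot4 at day 9, with none at day 23.

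The receptor gene Ppara stood at similar levels in both arms at day 3. The log2 levels were 9.40, 10.43 and 10.32 in treated mice and 10.13, 9.81 and 10.09 in saline mice, a difference of 0.04 (95% interval -0.55 to 0.64). At day 9 the treated mice had 11.65, 11.45 and 11.80 and the saline mice 10.44, 11.63 and 10.50. Saline replicate 2 lay within the treated range, and the other saline mice lay about a unit below it. The difference of 0.78 did not pass (SE 0.28, adjusted p = 0.16); without saline replicate 2 it was 1.16 and passed (adjusted p = 0.0203; 0.0203 to 0.409 over the settings tried). The other Ppara probe sets differed by 0.63 and 0.07 at day 9 (adjusted p = 0.0979 and 0.903 over every probe set). At day 23 the treated levels of 10.35, 10.93 and 10.60 lay above the highest saline level of 10.32, a difference of 0.43 that did not pass (adjusted p = 0.546). Creb3l3, a liver bZIP factor of the fasting response that acts with PPARA on Fgf21, differed by -0.02, 0.22 and 0.01 at day 3, 9 and 23, and none of these passed.

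Among genes of fatty acid uptake, binding and activation, 0 of 3 passed in any of the treated against saline comparisons. Cd36, a membrane receptor for fatty acids, was at 7.32, 7.13 and 7.88 in treated mice and 6.65, 7.09 and 7.02 in saline mice of day 3. These groups did not overlap, but the difference of 0.53 did not pass (SE 0.35, adjusted p = 0.472). Fabp1, the liver fatty acid binding protein, varied little: the 18 arrays spanned 14.44 to 14.66. Its treated minus saline difference was 0.07 at day 3 (95% interval -0.08 to 0.21), 0.07 at day 9 (-0.07 to 0.22) and 0.04 at day 23 (-0.11 to 0.18). Slc27a2, which activates very long chain fatty acids, differed by -0.18, 0.02 and -0.14.

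The promoter windows of Cd36 and Fabp1 are shown because both contain a DR1-like element. The letters searched were AGGTCANAGGTCA, on both strands and with at most 2 mismatches in the 12 fixed letters, in RefSeq windows from 250 bases before to 50 bases after each start (GRCm38.p6). Matches stood in 6 of the 31 windows found for 29 of the genes (19.4%) and in 1268 of 32851 windows of all genes (3.86%). With at most 1 mismatch they stood in 1 window of the set (3.23%, Fabp1) and in 0.554% of all windows. The other holders were Etfa, Acot4, Slc25a20 and Creb3l3. Neighbouring windows can share bases, as those of Hadha and Hadhb do (228 bases). Both windows run 5′ to 3′ on the strand of the gene, and capitals mark the match.
Cd36, chr5:17835847-17836146, minus strand, match at -63 to -51 from the start:
Cd36: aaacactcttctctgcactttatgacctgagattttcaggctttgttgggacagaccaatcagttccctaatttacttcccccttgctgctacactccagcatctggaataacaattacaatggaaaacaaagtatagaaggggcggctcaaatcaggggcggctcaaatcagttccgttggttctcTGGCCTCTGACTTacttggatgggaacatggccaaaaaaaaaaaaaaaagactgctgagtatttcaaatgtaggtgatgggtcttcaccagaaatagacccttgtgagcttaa
Fabp1, chr6:71199629-71199928, plus strand, match at -67 to -55 from the start:
Fabp1: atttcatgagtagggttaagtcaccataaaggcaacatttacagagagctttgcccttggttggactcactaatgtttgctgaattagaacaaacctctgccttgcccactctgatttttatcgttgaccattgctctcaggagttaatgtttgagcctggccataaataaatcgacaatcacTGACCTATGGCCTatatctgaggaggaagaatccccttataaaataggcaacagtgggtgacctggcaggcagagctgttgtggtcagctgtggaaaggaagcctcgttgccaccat
A match is a string of letters and was not tested for binding.

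The carnitine shuttle carries long-chain acyl groups across the inner mitochondrial membrane, and 0 of its 3 genes passed in treated against saline mice. Cpt1a, the regulated entry step, was at 10.04, 10.36 and 9.94 in treated mice and 9.87, 10.27 and 10.08 in saline mice of day 3. At day 9 the levels were 11.15, 10.69 and 11.44 against 11.02, 10.77 and 10.97. Treated and saline mice overlapped on both days, and the differences were 0.04 (95% interval -0.30 to 0.38) and 0.17 (-0.17 to 0.51). The other Cpt1a probe sets had the opposite sign at day 9, at -0.30 and -0.21, and did not pass. Cpt2, the matching transferase of the inner face, was at 10.60 to 10.72 in treated mice and 10.84 to 10.88 in saline mice of day 3, a difference of -0.19 with no overlap that did not pass (adjusted p = 0.185). Slc25a20, the carnitine-acylcarnitine translocase, differed by 0.10, 0.18 and 0.03 at day 3, 9 and 23.

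In the mitochondrial beta-oxidation spiral 1 of 8 genes fell at day 3 and 1 rose at day 9. Acads, the short-chain acyl-CoA dehydrogenase, was at 8.93, 9.01 and 9.13 in treated mice and 9.33, 9.21 and 9.39 in saline mice of day 3. All treated mice lay below all saline mice, and the gene fell 1.22-fold (log2 -0.29, SE 0.08, adjusted p = 0.0445). The groups were also separate at day 9 (9.24 to 9.34 against 9.41 to 9.46) and at day 23 (9.08 to 9.19 against 9.31 to 9.48), with differences of -0.14 and -0.27 that did not pass. The second arrays of these treated day 23 mice, of prefix p0617, read 9.34, 9.27 and 9.27. Those levels overlap the saline levels of prefix p0621. The array sets themselves differed for Acads by -0.14, -0.18 and -0.12 (p0621 minus p0617, mice 36, 37 and 38). No saline array of day 23 carries p0617, so the separation could not be checked within that prefix. At day 23 the adjusted p of Acads was 0.116, and it was 0.0358 where only genes above the 75th percentile of level were tested (0.0358 to 0.49 over the settings). Its call at day 3 was lost without treated replicate 1 (-0.24) or 2 (-0.28), or saline replicate 1 (-0.28) or 3 (-0.25), with adjusted p = 0.102 to 0.191.

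Hadhb, the thiolase subunit of the trifunctional protein, was at 12.03, 11.97 and 12.12 in treated mice and 11.77, 11.70 and 11.70 in saline mice of day 9. The groups were separate, and the gene rose 1.24-fold (log2 0.31, SE 0.08, adjusted p = 0.0329). That call was lost without any single array of day 9 other than treated replicate 2 (0.27 to 0.34, adjusted p = 0.0631 to 0.142). A second Hadhb probe set differed by 0.09 at day 9 and did not pass. Hadha, which encodes the other subunit and starts 273 bases away on the opposite strand, differed by 0.06 at day 9 (95% interval -0.15 to 0.27). Its levels were 10.87, 10.63 and 10.87 in treated mice and 10.87, 10.71 and 10.61 in saline mice. The further dehydrogenases Acadl, Acadm and Acadvl, of long, medium and very long chains, differed by -0.16, -0.02 and -0.19 at day 3 and by 0.21, 0.10 and 0.21 at day 9. Hadh, the hydroxyacyl-CoA dehydrogenase, differed by 0.11 at day 9 and did not pass. Acaa2, the mitochondrial thiolase, was at 12.40 to 12.54 in treated mice and 12.59 to 12.67 in saline mice of day 3, a difference of -0.14 with no overlap that did not pass. With all probe sets tested singly, another one of Acaa2 was lower at day 3 (log2 -0.31, adjusted p = 0.0419), and the remaining one differed by -0.19 without passing. At day 9 Acaa2 differed by 0.02.

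All 4 auxiliary enzymes, which handle double bonds of unsaturated fatty acids, had treated arrays wholly above the saline arrays at day 9, and 1 of them passed. Eci1, the mitochondrial enoyl-CoA isomerase, was at 10.69, 10.74 and 10.91 in treated mice and 10.40, 10.53 and 10.34 in saline mice. It rose 1.28-fold (log2 0.36, SE 0.09, adjusted p = 0.0367). The call was lost without treated replicate 1, 2 or 3 or saline replicate 1 or 3 of day 9 (0.29 to 0.40, adjusted p = 0.0596 to 0.163). Eci2, the isomerase found also in peroxisomes, was at 11.30, 11.42 and 11.51 against 11.02, 11.10 and 10.90, a difference of 0.40 that missed the threshold (adjusted p = 0.0735). Decr1 and Decr2, the mitochondrial and peroxisomal dienoyl-CoA reductases, differed by 0.37 and 0.53 without passing. A second probe set of Decr1 differed by 0.55 (adjusted p = 0.0447 over every probe set). At day 3 the 4 genes differed by -0.03 to 0.25 and at day 23 by -0.11 to -0.02, and none passed.

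Etfa gave the smallest adjusted p of the set in any treated against saline comparison. It encodes the alpha subunit of the electron transfer flavoprotein, which takes electrons from the acyl-CoA dehydrogenases. At day 3 the treated mice had 11.70, 11.69 and 11.75 and the saline mice 12.14, 12.15 and 12.19. The groups were far apart relative to their spread, and Etfa fell 1.37-fold (log2 -0.45, SE 0.07, adjusted p = 0.000883). The call held without any single array of day 3 and was missed with the beta-actin ratio as a covariate (-0.46, adjusted p = 0.0533; 5.5e-05 to 0.0533 over the settings). At day 9 the treated levels of 12.14, 12.15 and 12.14 lay below the saline levels of 12.31, 12.32 and 12.22, and at day 23 the highest treated level, 12.17, lay just below the saline levels of 12.18, 12.20 and 12.22. These differences of -0.14 and -0.09 did not pass, and the change from day 3 to day 9 of 0.31 was not called (adjusted p = 0.213). Its partner subunit Etfb was at 12.25 to 12.30 in treated mice and 12.24 to 12.28 in saline mice of day 3, a difference of 0.03 (95% interval -0.10 to 0.17). Etfdh, which hands the electrons to ubiquinone, differed by -0.04, 0.03 and 0.04 on the 3 days.

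The Etfa window is shown as that of the gene of the set with the clearest decrease at day 3. It lies at chr9:55512194-55512493 on the minus strand (RefSeq, GRCm38.p6), and capitals mark a DR1-like match with 2 mismatches at -77 to -65 from the start.
Etfa: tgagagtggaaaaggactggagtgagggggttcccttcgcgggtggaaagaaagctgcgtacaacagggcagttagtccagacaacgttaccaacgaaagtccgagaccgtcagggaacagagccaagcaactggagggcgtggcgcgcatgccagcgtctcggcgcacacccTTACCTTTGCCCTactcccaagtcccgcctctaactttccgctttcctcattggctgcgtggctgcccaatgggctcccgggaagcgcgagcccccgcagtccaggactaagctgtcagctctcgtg

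The peroxisomal beta-oxidation genes of the set had lower means in treated mice for 4 of 4 genes at day 3 and at day 9, and none passed by limma (1 of 4 at an unadjusted p under 0.05 on each day). Of 22 further peroxisomal genes outside the set, 18 had lower means in treated mice at day 3, as did 8585 of all 18193 genes. At day 9, 10 of the 22 were lower and 12 higher, beside 9986 and 8207 of all genes. Decr2 and Eci2, given above, were higher too. Ehhadh, the bifunctional enzyme, was at 11.68, 11.78 and 11.64 in treated mice and 11.93, 12.09 and 11.91 in saline mice of day 9. The groups did not overlap, and the difference of -0.28 did not pass (SE 0.12, adjusted p = 0.268). Acaa1a and Acaa1b, the peroxisomal thiolases, were likewise separate at day 9 with differences of -0.27 and -0.17. Hsd17b4, the other bifunctional enzyme, overlapped between the groups and differed by -0.02. These 2 thiolase genes are near-identical copies, and their probe sets may share signal.

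Cyp4a14, an omega-hydroxylase and a sensitive target of PPARA, did not pass in any treated against saline comparison. At day 3 the levels were 5.36, 5.13 and 7.0 in treated mice and 6.77, 6.79 and 6.77 in saline mice. Treated replicate 3 lay above all saline mice and the other treated mice well below them, and the difference was -0.95 (95% interval -2.45 to 0.55). At day 9 the levels were 9.39, 9.60 and 11.83 against 9.16, 11.68 and 8.44, with 1 mouse of each group more than 2 units above the others. At day 23 they were 6.75, 6.91 and 7.94 against 8.28, 7.62 and 8.32, a difference of -0.87 that did not pass.

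The acyl-CoA thioesterases of the chromosome 12 cluster had higher means in treated mice at day 3, 9 and 23 for 3 of 3 genes, with 1 of 3 called at day 3 and at day 9. Acot4, a peroxisomal thioesterase of succinyl-CoA and dicarboxylic acyl-CoA esters, was at 8.30, 8.03 and 8.21 in treated mice and 7.51, 7.72 and 7.76 in saline mice of day 3. The groups did not overlap, and Acot4 rose 1.43-fold (log2 0.52, SE 0.13, adjusted p = 0.0252). At day 9 its levels were 8.52, 8.54 and 8.33 against 7.94, 7.77 and 7.72, again with no overlap. It rose 1.57-fold (log2 0.65, SE 0.13, adjusted p = 0.0113). At day 23 the groups overlapped (8.27, 8.03 and 7.70 against 7.80, 7.69 and 7.91) and the difference was 0.20. The day 3 call of Acot4 was lost without treated replicate 1 (0.46) or 3 (0.50), or saline replicate 1 (0.44) or 2 (0.54), with adjusted p = 0.0564 to 0.119. The day 9 call held without any single array and was lost with the beta-actin ratio as a covariate (0.43, adjusted p = 0.359; 0.00543 to 0.359 over the settings). A second, dimmer Acot4 probe set differed by 0.16, 0.34 and 0.40 at day 3, 9 and 23 without passing.

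Acot3, which is peroxisomal, was at 9.88, 10.58 and 9.92 in treated mice and 9.25, 9.34 and 9.69 in saline mice of day 3, a difference of 0.70 (SE 0.22, adjusted p = 0.0827). At day 9 it was at 11.16, 11.13 and 10.70 against 10.59, 9.86 and 10.05. The groups were separate on both days, and the day 9 difference of 0.83 missed the threshold (adjusted p = 0.0513). It passed without saline replicate 1 of day 9 (1.04, adjusted p = 0.0313; 0.0298 to 0.641 over the settings). Acot1, the cytosolic member, was at 8.73, 8.64 and 9.42 against 8.33, 8.11 and 8.05 at day 3, with no overlap and a difference of 0.77 that did not pass (adjusted p = 0.209). Its differences at day 9 and day 23 were 0.66 and 0.56, with overlapping groups.

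These genes stand side by side in the order Acot2, Acot1, Acot4, Acot3, Acot5 and Acot6 in the RefSeq annotation of chromosome 12. Of the neighbours outside the set, mitochondrial Acot2 was at 8.12, 8.05 and 8.07 in treated mice and 7.86, 7.61 and 7.98 in saline mice of day 3, and at 8.46, 8.54 and 8.58 against 8.14, 8.33 and 7.91 at day 9. It lay wholly above the saline mice on both days, and the differences of 0.26 and 0.40 did not pass. Acot5 was dim, at 3.09 to 3.62 on the 18 arrays, below the median of 4.79 of all probe sets, and Acot6 was at 5.49 to 6.19; neither passed at any day. At day 3 Acot5 lay wholly above the saline mice (3.39 to 3.62 against 3.16 to 3.28), a difference of 0.27 (adjusted p = 0.102). The genes are paralogs with related sequences, so probe sets may bind more than 1 transcript and the rise of single members is uncertain. The promoter windows of the 3 genes are shown since the neighbours were higher together. They lie on the plus strand at chr12:84009252-84009551 (Acot1), chr12:84051894-84052193 (Acot3, the first of its 2 windows) and chr12:84038129-84038428 (Acot4). Capitals in Acot4 mark an E-box, CACGTG, and a DR1-like match with 2 mismatches at -13 to -1 from the start.
Acot1: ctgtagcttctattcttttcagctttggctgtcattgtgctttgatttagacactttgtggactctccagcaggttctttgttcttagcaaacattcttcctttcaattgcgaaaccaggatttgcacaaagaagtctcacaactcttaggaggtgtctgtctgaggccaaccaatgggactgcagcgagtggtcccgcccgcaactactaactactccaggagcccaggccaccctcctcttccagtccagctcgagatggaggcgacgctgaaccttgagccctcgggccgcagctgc
Acot3: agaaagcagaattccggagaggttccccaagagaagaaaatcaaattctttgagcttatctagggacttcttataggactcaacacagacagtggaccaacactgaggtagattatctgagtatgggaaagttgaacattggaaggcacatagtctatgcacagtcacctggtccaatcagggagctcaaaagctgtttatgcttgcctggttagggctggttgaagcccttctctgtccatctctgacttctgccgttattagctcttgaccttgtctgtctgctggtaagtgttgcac
Acot4: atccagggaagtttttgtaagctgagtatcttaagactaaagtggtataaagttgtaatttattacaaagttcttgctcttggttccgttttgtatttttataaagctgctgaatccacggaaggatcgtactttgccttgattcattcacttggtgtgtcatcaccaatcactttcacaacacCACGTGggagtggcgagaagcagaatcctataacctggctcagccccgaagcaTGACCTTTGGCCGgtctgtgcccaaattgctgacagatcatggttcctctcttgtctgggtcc
The windows of Acot1 and Acot3 hold neither string. An E-box stood in 2 of the 31 windows of the set (6.45%, Acot4 and Fgf21) and in 7.15% of all windows.

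**Figure D3:**
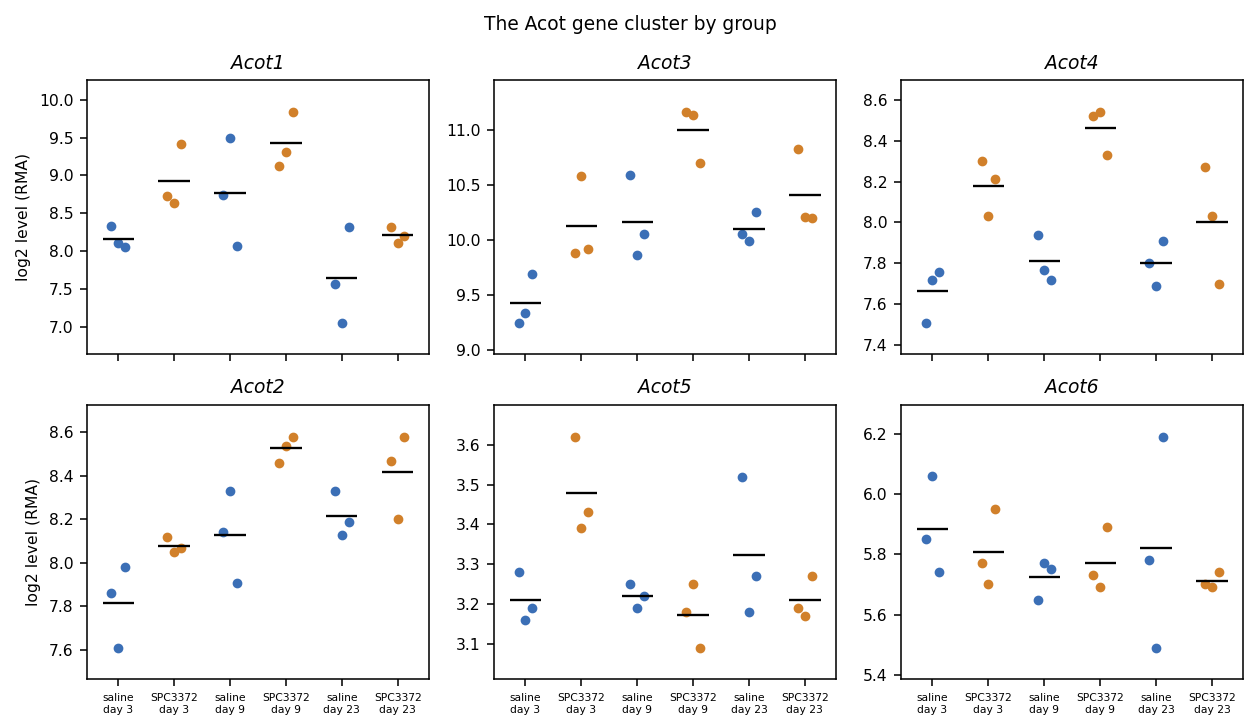
Log2 level (vertical) of 6 thioesterase genes of the chromosome 12 cluster in 6 groups (horizontal); dots are mice, 3 per group, blue saline and orange SPC3372, and lines are group means, with a separate axis for each gene. Acot4 lies between 8.03 and 8.30 in treated mice and between 7.51 and 7.76 in saline mice of day 3, Acot5 is likewise higher at day 3 (3.39 to 3.62 against 3.16 to 3.28), and Acot6 overlaps there.

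Of the secreted and fasting genes 0 of 4 passed in treated against saline mice. Angptl4, a secreted inhibitor of lipoprotein lipase, was at 9.49, 9.31 and 9.72 in treated mice and 8.94, 9.31 and 8.45 in saline mice of day 9. The groups met at 9.31, and the difference of 0.61 did not pass (SE 0.22, adjusted p = 0.167). Vnn1, a pantetheinase of the cell surface, was at 7.65, 5.14 and 7.62 against 8.57, 8.70 and 7.88 at day 23. All treated mice were lower, replicate 2 by far the most, and the difference of -1.58 did not pass (SE 0.61, adjusted p = 0.239). Fgf21, the fasting hormone, was at 5.73, 5.94 and 5.96 against 5.47, 5.52 and 5.18 at day 3, a difference of 0.49 with no overlap that did not pass (adjusted p = 0.48). Pdk4, which inhibits pyruvate dehydrogenase and so spares glucose, differed by 0.19, 0.33 and -0.19 on the 3 days.

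Among the comparisons tested, the largest differences in the set lay between saline mice of day 3 and day 9. From day 3 to day 9, 11 genes rose and 1 fell, where 2.76% of all genes rose and 3.12% fell. Of the 35 genes 21 had an unadjusted p under 0.05, and of all 18193 genes 3272. A higher mean at day 9 was found for 34 genes of the set and for 9734 of all 18193. The median difference was 0.26 on the log2 scale, beside 0.01 for all genes. The day 9 arrays lay wholly above the day 3 arrays for 23 genes and wholly below for 1, against 11.4% and 10.4% of all genes. This comparison shares its saline arrays with the treated against saline comparisons of day 3 and day 9, so overlaps with them are not given. The beta-actin ratio also separated the saline days, at 0.76 to 0.85 on day 3 and 0.86 to 0.98 on day 9. With it as a covariate 6 of the 12 calls were missed, those of Vnn1 (2.05), Angptl4 (0.81), Eci2 (0.47), Slc27a2 (0.35), Acadm (0.30) and Etfdh (0.24), with adjusted p = 0.0731 to 0.165. Stellate cell and fibroblast markers had lower means at day 9 for 11 of 12 genes (median -0.47), of which Pdgfrb was called (-0.59), and summed log2 levels of 11.59 to 11.75 against 12.04 to 12.18 at day 3; their part in the result was not tested. In treated mice, which are other animals, 33 of 35 genes had higher means at day 9 than at day 3, with a median of 0.47. These 33 were higher in saline mice as well. The share of all genes higher between the treated days was not counted. The largest difference between the treated days, 4.45 for Cyp4a14, exceeded any between the saline days and was not tested.

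In saline mice Cyp4a14 had the largest rise. It went from 6.77, 6.79 and 6.77 at day 3 to 9.16, 11.68 and 8.44 at day 9, a 7.90-fold rise (log2 2.98, SE 0.71, adjusted p = 0.0176). The day 3 mice agree closely, and the day 9 mice spread over more than 3 units. Without saline replicate 2 of day 9 the rise was 2.02 and did not pass (adjusted p = 0.0821), and it also missed the threshold without saline replicate 1 (0.0576) or 3 (0.0543) of day 3. Vnn1 went from 6.67, 6.10 and 7.95 to 9.72, 9.09 and 8.78, a rise of 2.29 (SE 0.61, adjusted p = 0.0324). That call was lost without any single saline array of these days other than replicate 3 of day 3 (1.89 to 2.50, adjusted p = 0.0599 to 0.132).

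Cd36 went from 6.65, 7.09 and 7.02 to 8.04, 9.25 and 8.19, a 2.98-fold rise (log2 1.57, SE 0.35, adjusted p = 0.0125). Replicate 2 of day 9 was the highest for Cd36 as for Cyp4a14. The call of Cd36 was lost without that mouse (1.2, adjusted p = 0.0694) and without replicate 1 of day 3 (1.44, adjusted p = 0.0615). Angptl4 went from 7.91, 8.20 and 7.86 to 8.94, 9.31 and 8.45, a rise of 0.91 (adjusted p = 0.021). It was lost without replicate 1 (0.87) or 3 (0.85) of day 3, or 1 (0.89) or 2 (0.70) of day 9, with adjusted p = 0.0592 to 0.108. Ppara itself went from 10.13, 9.81 and 10.09 to 10.44, 11.63 and 10.50, with no overlap and a difference of 0.85 that did not pass (adjusted p = 0.093). Its other probe sets differed by 1.16 and 0.85 (adjusted p = 0.000914 and 0.0129 over every probe set), and the mean of its probe sets by 0.95 (adjusted p = 0.00184).

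Of the mitochondrial genes, 1 of 3 of the carnitine shuttle, 2 of 8 of the spiral and 1 of 3 of electron transfer rose, beside 2 of 4 auxiliary enzymes. Cpt1a went from 9.87, 10.27 and 10.08 to 11.02, 10.77 and 10.97, a 1.80-fold rise (log2 0.85, SE 0.16, adjusted p = 0.00375). The groups did not overlap, and the call of Cpt1a held in all 16 other settings. Hadhb went from 11.33, 11.28 and 11.42 to 11.77, 11.70 and 11.70, a rise of 0.38 (adjusted p = 0.00495) that also held in all 16 settings, although of its other probe sets 1 differed by 0.11 without passing and 1 by 0.71 (adjusted p = 0.0397 over every probe set). Eci2 rose by 0.53 (from 10.43, 10.37 and 10.65 to 11.02, 11.10 and 10.90, adjusted p = 0.00985). This call was lost in 1 of 16 settings, the beta-actin covariate.

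Eci1 and Slc27a2 each rose by 0.39, Acadm by 0.35 and Etfdh by 0.28 (adjusted p = 0.0135, 0.0337, 0.0312 and 0.0267), each with no overlap between the days. Eci1 was lost without replicate 1 or 2 of day 3 or 2 of day 9 (0.33 to 0.37, adjusted p = 0.0525 to 0.0696). Acadm was lost without any single array of the 6 (0.32 to 0.38, adjusted p = 0.0601 to 0.111). Slc27a2 was lost without any of the 6 other than replicate 3 of day 3 (0.33 to 0.40, adjusted p = 0.0698 to 0.132), and Etfdh without any other than replicate 2 of day 3 (0.25 to 0.30, adjusted p = 0.0537 to 0.106). None of the 4 peroxisomal genes passed, with differences of 0.12 to 0.39. Acot3 was higher by 0.74 (adjusted p = 0.0566) and passed without replicate 2 of day 9 (0.89, adjusted p = 0.0448). The count of called genes was 5 without replicate 1 of day 3, 7 without replicate 1 of day 9 and 5 without replicate 2 of day 9, against 12 with all arrays.

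Pdk4 alone went the other way. It fell from 7.37, 7.54 and 7.27 at day 3 to 5.26, 5.94 and 5.5 at day 9, a 3.54-fold decrease (log2 -1.82, SE 0.27, adjusted p = 0.000483). The groups are more than a unit apart, and the call of Pdk4 held in all 15 settings that tested it. The treated mice had 7.28, 7.05 and 8.44 at day 3 and 6.20, 5.66 and 5.84 at day 9. At day 23 the levels were back near those of day 3, at 7.50, 7.06 and 7.42 in saline and 7.36, 7.0 and 7.03 in treated mice, which were measured in the other array set.

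**Figure D4:**
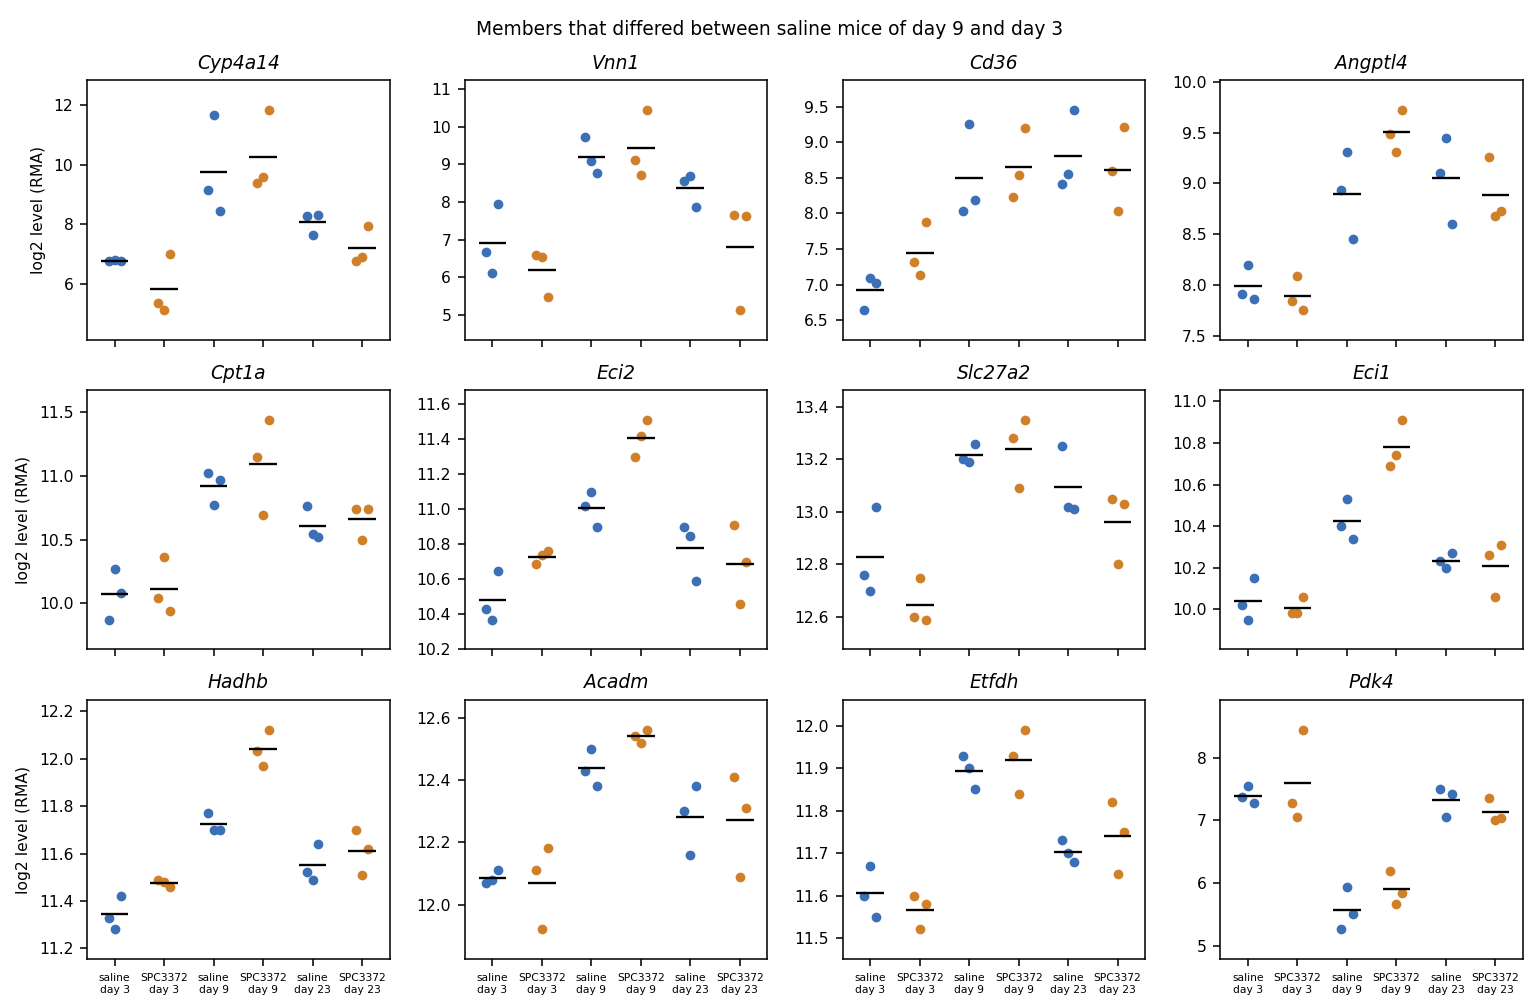
Log2 level (vertical) of the 12 genes called between saline mice of day 9 and day 3, in 6 groups (horizontal); dots are mice, 3 per group, blue saline and orange SPC3372, and lines are group means, with a separate axis for each gene. Cyp4a14 lies near 6.8 in saline mice of day 3 and between 8.44 and 11.68 at day 9, and Pdk4 goes from about 7.4 to about 5.6.

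Genes of the circadian clock and of feeding differed between the same saline groups. Of all genes 2.76% were called higher and 3.12% lower at day 9. Of 17 core clock genes 5 were higher and 6 lower at day 9 than at day 3. Dbp, a clock output factor, was higher by 5.21 (SE 0.37, adjusted p = 1.44e-06) and Nr1d1, a clock repressor, by 2.00. Cry1 was lower by 2.81 and Arntl, the core activator, by 1.45. Of 19 fasting and feeding genes 0 were higher and 4 lower. These were Pnpla3 (-3.08), Srebf1, the inducer of lipid synthesis (-1.40), Thrsp (-1.26) and the gluconeogenic Tat (-1.09). Neither the hour of killing nor the feeding of the mice is given in the sources used here. Day after dosing, hour of the day and feeding state cannot be told apart in this comparison.

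Of the 17 clock genes 1 was called between the arms at day 3, Nr1d2, higher in treated mice by 0.90 (adjusted p = 0.0496) with overlapping groups, and 2 at day 9. Arntl was at 5.39, 5.76 and 5.39 in treated mice and 6.87, 7.12 and 6.31 in saline mice (log2 -1.25, SE 0.18, adjusted p = 0.00154), and Per2 was higher in treated mice by 1.04 (adjusted p = 0.0493), both at day 9. Among the feeding genes Pck1, of gluconeogenesis, was higher in treated mice by 0.76 at day 3 and 0.74 at day 9, and Srebf1 was lower by 0.82 at day 3. Interferon response genes were called higher in treated mice for 12 of 15 at day 3 and 8 of 15 at day 9. Of 13 acute phase genes 5 were called higher at day 3, and at day 9 0 were higher and 1 lower. Over all genes 2.63% were called higher at day 3 and 1.91% at day 9. The part of these differences in the day 3 and day 9 results of the fatty acid oxidation genes was not tested. The same holds for the macrophage, lymphocyte, endothelial, bile duct, stellate cell and adipocyte markers. The part of the beta-actin ratio was not tested either, apart from the covariate fits on it, in which 0 of 35 genes were called at day 3 and at day 9.

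Other genes of the same pathways were counted in lists made by role, beside shares of all genes of 2.63% higher and 1.88% lower in treated mice at day 3, and 1.91% and 0.896% at day 9. Of 16 further genes of mitochondrial oxidation 0 passed at day 3 and 1 fell at day 9, Acacb, whose product makes the malonyl-CoA that inhibits CPT1. It was at 7.35, 7.73 and 6.33 in treated mice and 8.79, 8.93 and 8.58 in saline mice (log2 -1.63, SE 0.41, adjusted p = 0.0383). Of 22 further peroxisomal genes 1 fell at day 3, the import receptor Pex5 (-0.43), and 1 at day 9, the enoyl-CoA reductase Pecr (-0.39). The median difference of these 22 genes was -0.10 at day 3 and 0.04 at day 9. Of 39 further PPARA targets Aqp9, a glycerol channel, rose at day 3 by 0.41 and at day 9 by 0.34, and of 24 partners and coregulators Rxra, the partner receptor of PPARA, rose at day 9 by 0.52. Of 5 ketogenesis genes 0 passed at day 3, 9 or 23 by limma, with 2, 3 and 1 at an unadjusted p under 0.05. At day 23 none of these lists had a called gene.

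Between saline mice of day 9 and day 3 these lists moved in both directions, beside 2.76% of all genes called higher and 3.12% lower. Of the 39 further PPARA targets 6 rose, led by Slc25a47 (1.51), a mitochondrial carrier of liver, and Fabp2 (1.05), the intestinal fatty acid binding protein. In the same list 5 fell, led by G0s2 (-1.40), an inhibitor of lipolysis, and Elovl6 (-1.35), a fatty acid elongase. Cyp4a31, next to Cyp4a10 and Cyp4a14 on chromosome 4, rose by 0.78 (adjusted p = 0.00386). Of the mitochondrial list 2 rose, the carnitine transporter Slc22a5 (0.55) and the CoA carrier Slc25a42 (0.42), and of the peroxisomal list 2, Acot12 (0.61) and Ech1 (0.34). Of 24 partners 3 rose and 1 fell: Pparg by 0.91, Ppargc1b by 0.88 and Klb, the co-receptor of FGF21, by 0.63, against Ppard, which fell by 1.99 (adjusted p = 5.2e-06). Of 5 ketogenesis genes 1 fell, Slc16a6 (-0.54).

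The genes of the set differed widely in how much mice of 1 group varied. The pooled SD within groups had a median of 0.124 over the 35 genes and 0.141 over all genes, with 19 of the 35 below the latter. At the upper end 10 genes lay above the 90th percentile of all genes, led by Cyp4a14 (SD 1.03), Vnn1 (0.874), Decr2 (0.580), Cd36 (0.508) and Fgf21 (0.472). Etfb (0.035), Fabp1 (0.048) and Etfa (0.049) varied least. Decr2 shows what such spread does: in saline mice of day 3 it was at 10.10, 7.64 and 9.02, and its difference of 1.12 between the saline days did not pass (adjusted p = 0.129). Without replicate 1 of day 3 it was 1.71 and passed (adjusted p = 0.00731; 0.00731 to 0.479 over the settings). Saline replicate 2 of day 9 lay above the saline mean of that day in 26 of 35 genes. Treated replicates 1, 2 and 3 of day 9 lay above the same saline mean in 25, 22 and 29 genes. Saline replicate 2 was the highest of its group for Cyp4a14, Ppara, Cd36, Acot1 and Fgf21, and treated replicate 3 for Cyp4a14, Vnn1, Cd36, Cpt1a and Acot1.

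The second arrays of the treated day 23 mice give the spread without a change of animal. All 3 differences between the arrays of a mouse were under 0.2 in size for 28 of 35 genes. For Cyp4a14 they were 0.16, -0.08 and 0.07 (p0621 minus p0617, mice 36, 37 and 38), against an SD of 1.03 between mice of a group. Over 0.3 in size were 4 differences, all in mouse 36: Decr2 (-0.53), Pdk4 (0.52), Ppara (-0.34) and Acaa1a (0.31). The limma test of array set with the mouse as a block called 0 of 35 genes (0 at an unadjusted p under 0.05) and 0 of all genes (1864 at an unadjusted p under 0.05).

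**Figure D5:**
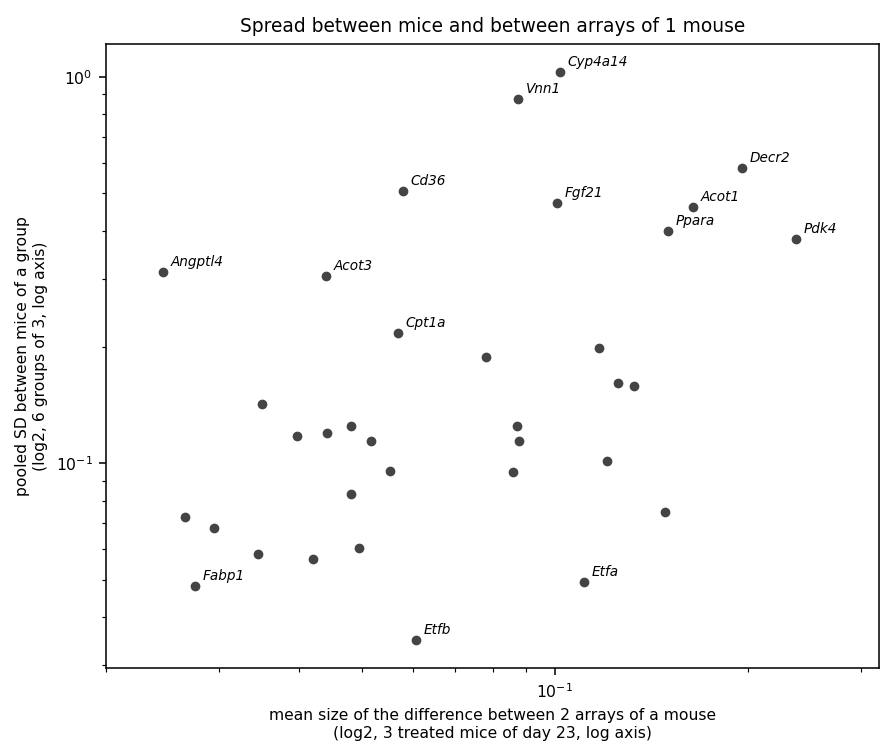
Pooled SD between mice of a group (vertical, log2, log axis) against the mean size of the difference between the arrays of a mouse (horizontal, log2, log axis, 3 treated mice of day 23) for 35 genes. Cyp4a14 and Vnn1 vary far more between mice (SD 1.03 and 0.874) than between arrays of a mouse, and Etfa and Etfb vary little between mice.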

How the data were processed

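The deposited values are log2 levels of 45101 probe sets on 21 arrays, which the authors made with RMA, as the submitters' processing notes say. Neither its version nor the arrays treated as 1 batch by RMA is given in the sources used here. RMA narrows differences of dim probe sets, so their folds understate a change. Array medians lay between 4.75 and 4.82, and arrays of a group correlated at 0.992 to 0.995. The platform annotation gave 34945 probe sets 1 symbol, 932 several and 9160 none, beside 64 controls.

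From these values 18 arrays, 1 per mouse, were fitted with limma 3.58.1 in R 4.3.3 (group means, lmFit and eBayes, 12 residual and 4.85 prior degrees of freedom). P-values were two-sided and adjusted over all 18193 genes. Differences carry the SE of the fit. Steps were tested on simulated data. The number of arrays limits the precision.

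The genes of the set, the other gene lists and the settings were chosen with earlier results of these data known. All 36 genes could be named. Of other lists up to 4 called genes each way per comparison could be named, those with the largest change whose arrays did not overlap, beside Aldoa, Bckdk, Acacb, Plin2, Ppargc1a, Srebf1 and Pck1; some genes that the rule also allowed are not reported here. Itgam, Nr1d2, Acot2, Acot5 and Acot6 were named outside this rule after their values were seen. All 35 genes were found by identifier in the RefSeq table (GRCm38.p6). Replicate numbers did not pair mice, with correlations of deviations from -0.15 to 0.08.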

Additional observations from a re-analysis of the deposited data

How the results depend on the processing

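The number of called genes, 3 at day 3, 3 at day 9, 0 at day 23 and 12 between saline day 9 and day 3, stayed within 1.5 times in 12 of 16, 9 of 16, 16 of 17 and 12 of 16 other settings in that order, and no called gene changed direction in any. Fitting only the groups compared gave 1 at day 3 and 1 at day 9. Testing only genes above the 75th percentile of level gave 5 at day 9 and 1 at day 23. Testing every probe set by itself gave 1 at day 9. The beta-actin 3' to 5' ratio as a covariate, added after seeing the data, gave 0 at day 3, 0 at day 9 and 6 between the saline days; the ratio differs between the arms at day 3 and day 9, so the covariate also takes up part of a group difference. Leaving out 1 array gave 1 to 2 at day 3, 1 to 3 at day 9, 0 to 0 at day 23 and 5 to 8 between the saline days; the cause was not tested. With the replicate number as a block the counts were 3, 3, 0 and 12, and the numbers do not pair the mice. Of 18 calls, Cpt1a, Hadhb and Pdk4 between the saline days held in every setting that tested them. Of 192 uncalled results 9 were called in some setting. With 3 mice a group, differences of strongly variable genes such as Cyp4a14 and Vnn1 were bounded only widely. Both interaction tests gave 0 in every setting.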
